A study of Caenorhabditis elegans with 48 samples.

Results

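The 10 genes *acdh-1* to *acdh-10* carry the acyl-CoA dehydrogenase name in *Caenorhabditis elegans*, and their mRNA was followed across all conditions of the experiment. They are 10 of the 46911 genes in the count tables, of which 19932 are protein-coding. The family was chosen by the counts of *acdh-2*, which in the somatic degron strain at 132 h were 1794 to 2566 with auxin and 0 to 3 with ethanol, and its members were then taken by name. The values of *acdh-2* in that strain at 132 h are therefore given as a description, without a test. The other 9 genes were taken whatever their values, and 7 of the 10 genes passed the filter on low counts.

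Whole starved larvae were collected from 4 strains, each at 132 h of L1 arrest with auxin, at 132 h with ethanol and at 36 h, with 4 replicates in each of the 12 groups and 48 libraries in all. In the somatic degron strain (LRB389, *Peft-3::TIR1; ama-1::AID*, alleles ieSi57 II and *ama-1*(syb1513) IV), TIR1 is made in the soma from the *eft-3* promoter. AMA-1, the largest RNA polymerase II subunit, carries the auxin-inducible degron (AID). The somatic control strain (CA1200, *Peft-3::TIR1*, allele ieSi57 II) has the same transgene without the tag. The germline degron strain (LRB387, *Pgld-1::TIR1; ama-1::AID*, alleles ieSi64 II and *ama-1*(syb1513) IV) makes TIR1 in the germline from the *gld-1* promoter. The germline control strain (CA1352, *Pgld-1::TIR1*, allele ieSi64 II) is its untagged control. Auxin at 100 μM, or ethanol alone, was added at 36 h, so that the 132 h groups had 96 h of treatment, and the 36 h groups had neither. No larva had been fed after hatching. LRB389 grows slowly, and its cultures were started from gravid adults, whereas those of the other 3 strains were started from L4 larvae. The degron acts on the AMA-1 protein, so counts of *ama-1* mRNA do not check the labels. Because whole larvae were used, fewer cells of a type and less RNA per cell cannot be told apart.

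Acyl-CoA dehydrogenases are flavoproteins of the mitochondrial matrix. They take electrons from an acyl-CoA, leave a double bond next to the thioester and pass the electrons to the respiratory chain through the electron transfer flavoprotein. Members differ in the acyl chain they accept, and so serve fatty acid oxidation, the breakdown of branched-chain amino acids or the handling of propionate. In *C. elegans*, ACDH-1 works in the propionate shunt, which is used when vitamin B12 is short, and its gene is a much used reporter of diet. By likeness to human enzymes, *acdh-1*, *acdh-2* and *acdh-4* belong with the short and branched chain enzyme ACADSB, *acdh-7*, *acdh-8* and *acdh-10* with the medium chain enzyme ACADM, and *acdh-9* with the isobutyryl-CoA dehydrogenase ACAD8 of valine breakdown.

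Libraries held between 5755041 and 18052333 counts on genes (median 11040338), and 69.6% to 96.1% of these were on protein-coding genes. Spike-ins made up 1.13% to 8.33% of counts. They were added by total RNA, and in the somatic degron strain their share was 2.58% to 8.33% with auxin, 1.50% to 2.44% with ethanol and 1.95% to 3.14% at 36 h. Levels are given as counts per 1000000 protein-coding counts (CPM) and, between genes, as CPM per kb of exon. Log2 fold changes come from edgeR's quasi-likelihood test over all 15549 tested genes, with W1, a factor estimated from the spike-ins, as a covariate. Adjusted p values are Benjamini-Hochberg values over those genes, with 0.05 as the threshold. W1 lay between 0.1 and 0.342 in the auxin libraries of the somatic degron strain and between −0.167 and −0.021 in the ethanol libraries, so W1 and auxin are partly confounded there. Replicates differed by more than counting error in all 72 pairs (chi-squared per degree of freedom 7.90 to 91.7).

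The members are spread over 4 chromosomes of the WBcel235 assembly. *acdh-2* (WBGene00015894) is at II:5544778-5547492 on the minus strand, with 5 exons and 1872 exonic bases, of which 87 are shared with the insulin-like gene *ins-13* on the same strand. *acdh-9* (WBGene00017874) is at II:846864-848603 on the minus strand and *acdh-8* (WBGene00019406) at II:5794495-5796185 on the plus strand, 247002 bases from *acdh-2*. *acdh-10* (WBGene00020366, X:17213144-17214903) and *acdh-7* (WBGene00020812, X:17215018-17217105) follow each other on the minus strand. *acdh-6* (WBGene00015335) is at III:8561136-8563026 on the plus strand. *acdh-1* (WBGene00016943), *acdh-3* (WBGene00019433), *acdh-4* (WBGene00020419) and *acdh-5* (WBGene00016491) are on chromosome I, where 30494 bases separate *acdh-1* from *acdh-3* and 47054 bases separate it from *acdh-4*. *acdh-3* shares exonic bases with *K06A5.3* and *knl-2*, both on the other strand. The kit does not mark strand and the strand setting of the counting is not given in the sources used here, so reads from overlapping stretches cannot be assigned to a strand.

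The question for *acdh-2* is in which libraries its mRNA was found. In the somatic degron strain, its counts were 1832, 2566, 1986 and 1794 with auxin, 1, 1, 3 and 0 with ethanol, and 49, 4, 17 and 10 at 36 h. The 4 auxin libraries stand above all others, and the 36 h libraries lie above the ethanol libraries. In CPM, the means were 210.4 with auxin, 0.107 with ethanol and 1.55 at 36 h. The pooled counts of 8178 with auxin and 5 with ethanol gave a ratio of 1754.5 in CPM (95% counting interval 751.5 to 5405) and of 604.4 per spike-in count (258.9 to 1862). Against 36 h, the ratio was 117.3 in CPM (94.1 to 148) and 56.7 per spike-in count (45.5 to 71.6). Single libraries moved these ratios, an alternative added after the data were seen. Without replicate 1, which holds 49 of the 80 counts at 36 h, the ratio against 36 h was 199.3 in CPM and 99.4 per spike-in count, and without replicate 2 it was 33.5 per spike-in count. Without replicate 3, which leaves 2 counts with ethanol, the ratio against ethanol was 2981 in CPM (825 to 24620) and 1006 per spike-in count (278 to 8309). The intervals cover the counting error of the pooled counts only and leave out the spread between replicates. That read pairs carried no molecular identifiers is a further limit.

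The same *acdh-2* reads were scarce everywhere else. In the somatic control strain, its counts were 0, 7, 0 and 2 with auxin, and 0 in all 4 libraries with ethanol and all 4 at 36 h. A sum of 0 allows up to 0.0776 CPM in that ethanol group and up to 0.0685 CPM at 36 h (3 counts over the group). Both germline strains held a few reads in each condition. In the germline degron strain, they were 0, 8, 0 and 16 with auxin, 1, 1, 5 and 9 with ethanol, and 0, 1, 0 and 1 at 36 h. In the germline control strain, they were 2, 0, 5 and 2 with auxin, 0, 0, 2 and 11 with ethanol, and 0, 9, 0 and 14 at 36 h. Of the 44 libraries other than the somatic degron strain with auxin, 24 held at least 1 count and 20 held 0, and the highest level was 3.01 CPM. None of the 3 other strains showed a change of *acdh-2* between auxin and ethanol past the threshold (adjusted p = 1 in each). No other member was called there, and edgeR's quasi-likelihood test called 0 of all genes (0% in each strain). At an unadjusted p under 0.05 there were 720 genes in the somatic control strain, 230 in the germline degron strain and 502 in the germline control strain. The likelihood ratio test called 7, 0 and 3 genes and DESeq2 16, 5 and 9 in that order of strains, with no member among the DESeq2 calls.

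**Figure D1:**
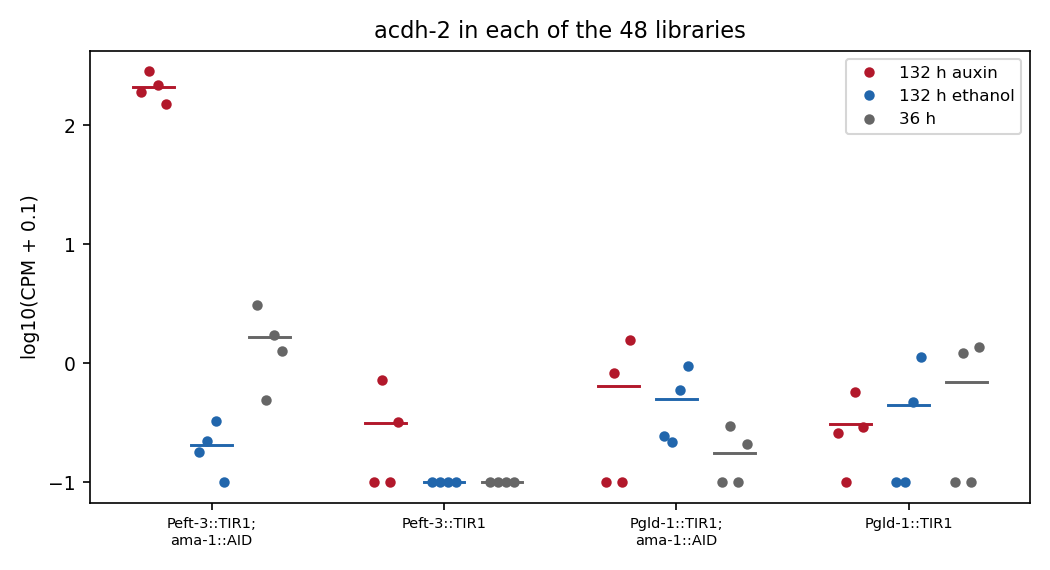
Each point is 1 library and each bar the mean CPM of 4 put on the same scale, with log10(CPM + 0.1) of *acdh-2* on the y axis and the 4 strains on the x axis (red, 132 h with auxin; blue, 132 h with ethanol; grey, 36 h). The 4 auxin libraries of the somatic degron strain average 210.4 CPM, and no other library exceeds 3.01 CPM.

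At 36 h, before any auxin, *acdh-2* was higher in the somatic degron strain than in the somatic control strain. Its counts come from other libraries than those by which the gene was chosen, although the fit of all 48 libraries shares its dispersion and W1 with them. The tagged strain held 49, 4, 17 and 10 counts (80 in all) and the untagged strain 0 in each library, so the groups did not overlap. Taking 3 counts over the untagged group as the floor, the pooled counts gave a bound of 25.6-fold by CPM. Such a bound leaves out the counting error of the 80 counts and the spread between replicates. Relative to spike-in counts, the same bound was 24.8-fold. Without replicate 1 in both strains, the bounds were 9.94-fold by CPM and 9.37-fold by spike-in counts. The edgeR test gave an adjusted p of 0.021, and *acdh-2* was 1 member of 7 tested to pass it, where 0.225% of all genes passed (0.167% as higher and 0.0579% as lower). The call was lost when any 1 replicate was left out (adjusted p 0.0675 to 0.379) and when only the 8 libraries compared were fitted (0.198 with W1 and 0.154 without). In the germline pair at 36 h, counts were 0, 1, 0 and 1 in the germline degron strain and 0, 9, 0 and 14 in the germline control strain (adjusted p = 0.84). No member was called there, against 1 gene in all (0.00643%), with 853 genes at an unadjusted p under 0.05, 4 called by the likelihood ratio test and 19 by DESeq2.

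Genes next to *acdh-2* were also counted. There are 13 other annotated genes within 10 kb of its ends, 9 of them protein-coding. In 8 of the 13, every auxin library of the somatic degron strain lay above every ethanol library in CPM, and 7 of these were tested. In 1 gene, also tested, every auxin library lay below. Of all tested genes 18.2% were above in this way, but nothing is read from this, since 7 of the 8 tested neighbours passed the filter only through those auxin libraries and the contrast is the one by which *acdh-2* was chosen. *C17C3.6*, on one side of *acdh-2*, had 705, 653, 424 and 435 counts with auxin, 0, 0, 1 and 0 with ethanol, and 0, 3, 0 and 0 at 36 h. *C17C3.5*, beyond it, had 1143, 1364, 1035 and 984 counts with auxin, 0, 0, 24 and 4 with ethanol, and 0, 2, 7 and 0 at 36 h. Both genes thus had 424 counts or more in each auxin library and at most 24 in the others of that strain. *ins-13*, which encodes an insulin-like peptide and overlaps *acdh-2*, had 176, 224, 78 and 82 counts with auxin and 0 in each ethanol and 36 h library. *hlh-27*, which encodes a basic helix-loop-helix protein, had 97, 81, 105 and 67 counts with auxin, 5, 0, 0 and 0 with ethanol, and 0, 3, 0 and 0 at 36 h. *hlh-25*, a close relative of *hlh-27* with which it may share reads, had 43, 30, 56 and 28 counts with auxin, 3, 0, 0 and 2 with ethanol, and 21, 1, 0 and 0 at 36 h. The auxin libraries were the high ones for each of these genes. Another insulin-like gene, *ins-12*, had 59, 84, 51 and 30 counts with auxin, 0, 2, 1 and 1 with ethanol, and 0, 2, 0 and 0 at 36 h. *C17C3.24* had 12 to 23 counts with auxin, 0 to 1 with ethanol and 0 at 36 h. The remaining tested neighbour, *ins-11*, went the other way, with 9, 15, 13 and 21 counts with auxin, 43, 50, 54 and 27 with ethanol, and 8, 20, 22 and 12 at 36 h. *C17C3.11* and the short non-coding genes *C17C3.22*, *C17C3.23*, *sls-2.2* and *sls-2.3* had 0 to 20 counts in the libraries of this strain.

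**Figure D2:**
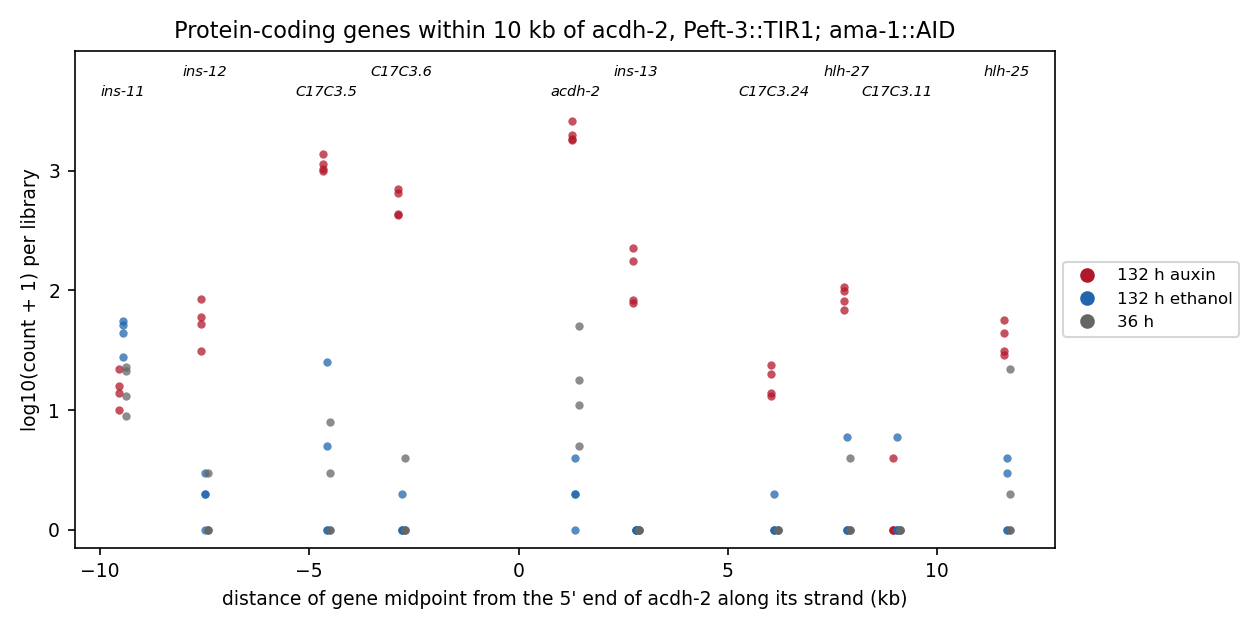
Each point is 1 library of the somatic degron strain, with log10(count + 1) on the y axis and the distance of the gene's midpoint from the 5′ end of *acdh-2*, in kb along its strand, on the x axis (red, 132 h with auxin; blue, 132 h with ethanol; grey, 36 h). The auxin points of *acdh-2* (1794 to 2566 counts), *C17C3.5* (984 to 1364) and *C17C3.6* (424 to 705) are the highest, and *ins-11* has its auxin points (9 to 21) below its ethanol points (27 to 54).

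Markers of other cells and stages moved in both directions in the same libraries. In the somatic degron strain, the summed level of 10 genes of the early embryo (a list written after values had been seen) was 15.8 to 33.6 CPM with auxin, 3.18 to 4.84 CPM with ethanol and 2.47 to 18.9 CPM at 36 h, with 2 to 4, 2 to 5 and 4 to 6 of the 10 genes at 0 in that order. The 6 oocyte and eggshell genes summed to 82.3 to 681 CPM with auxin, 32.9 to 61.7 CPM with ethanol and 12.6 to 55.8 CPM at 36 h, with 0 to 1, 0 to 2 and 1 to 2 of them at 0. Both lists were higher in every auxin library than in every ethanol library. In auxin replicates 1 to 4, the oocyte and eggshell genes summed to 82.3, 193, 125 and 681 CPM, beside 189.9, 284.1, 217.2 and 150.5 CPM of *acdh-2*. Replicate 4 was thus the highest for these genes and the lowest for *acdh-2*, while among the other 3 both levels had the same order. The 4 germ cell genes summed to 229 to 545 CPM with auxin, 128 to 211 CPM with ethanol and 53.3 to 95.9 CPM at 36 h. Intestinal genes, 5 in all, summed to 2038 to 3958 CPM with auxin, 382 to 556 CPM with ethanol and 12884 to 16421 CPM at 36 h, with none at 0. The 5 sperm genes, of which 3 or 4 were at 0 in each auxin library, summed to 1.09 to 5.69 CPM with auxin, at most 0.227 CPM with ethanol and at most 1.18 CPM at 36 h. Neuronal genes, 4 in all, summed to 814 to 899 CPM with auxin, 541 to 682 CPM with ethanol and 466 to 520 CPM at 36 h. The 6 yolk protein genes summed to 8.97 to 47.2 CPM with auxin, 2.30 to 7.67 CPM with ethanol and 11.2 to 24 CPM at 36 h. The remaining lists were not higher with auxin. The 4 body wall muscle genes summed to 1790 to 2325 CPM with auxin, 3284 to 4976 CPM with ethanol and 14495 to 20899 CPM at 36 h, and the 4 epidermal genes to 34.1 to 53.2 CPM with auxin, 46.2 to 93.5 CPM with ethanol and 37.6 to 71.9 CPM at 36 h. The part of these transcripts in the level of *acdh-2* was not tested.

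Over the 12 group means of log2(CPM + 1), 7 genes had a Pearson correlation with *acdh-2* above 0.99. The 5 nearest were *sfxn-1.1* (0.995), *his-5* (0.994), *C54G4.2* (0.993), *rnh-1.1* (0.992) and *ZC513.3* (0.992). These points share libraries, and the pattern is set by 1 group. *C54G4.2* had 222 to 448 counts with auxin and 0 to 9 with ethanol in the somatic degron strain, and *rnh-1.1*, which encodes a ribonuclease H, had 71 to 265 with auxin and 0 with ethanol. *his-5* is a histone gene with near-identical copies, so its counts are uncertain.

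Apart from *acdh-2*, the family's mRNA came mostly from *acdh-9*, *acdh-10*, *acdh-3* and *acdh-7*. Per kb of exon at 36 h, *acdh-9* ranked first in all 4 strains (group means 53.5 to 61.1 CPM per kb), followed by *acdh-10*, *acdh-3* and *acdh-7*, in that order. *acdh-9* and *acdh-10* overlapped in 3 of the 4 strains, and lay apart in the somatic control strain. At 132 h with ethanol, *acdh-10* ranked first in each strain (35.2 to 55.2 CPM per kb), and *acdh-9* was the fourth in 3 strains and the third in the germline control strain (17.9 to 27.3 CPM per kb). Where *acdh-10* led, its libraries overlapped those of the next gene. *acdh-1* and *acdh-4* were lower, with group means of 0.403 to 8.18 and 0.373 to 2.54 CPM per kb. In the somatic degron strain with auxin, *acdh-2* ranked first at 112.4 ± 30.04 CPM per kb (SD, n = 4), above *acdh-9* at 58.2 ± 9.09, with no overlap between their libraries. *acdh-2* held 25.6% to 51.6% of the summed level of the 10 genes in these libraries. The sum was 271.7 ± 39.8 CPM per kb with auxin, 162.1 ± 35.5 with ethanol and 182.3 ± 8.19 at 36 h.

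**Figure D3:**
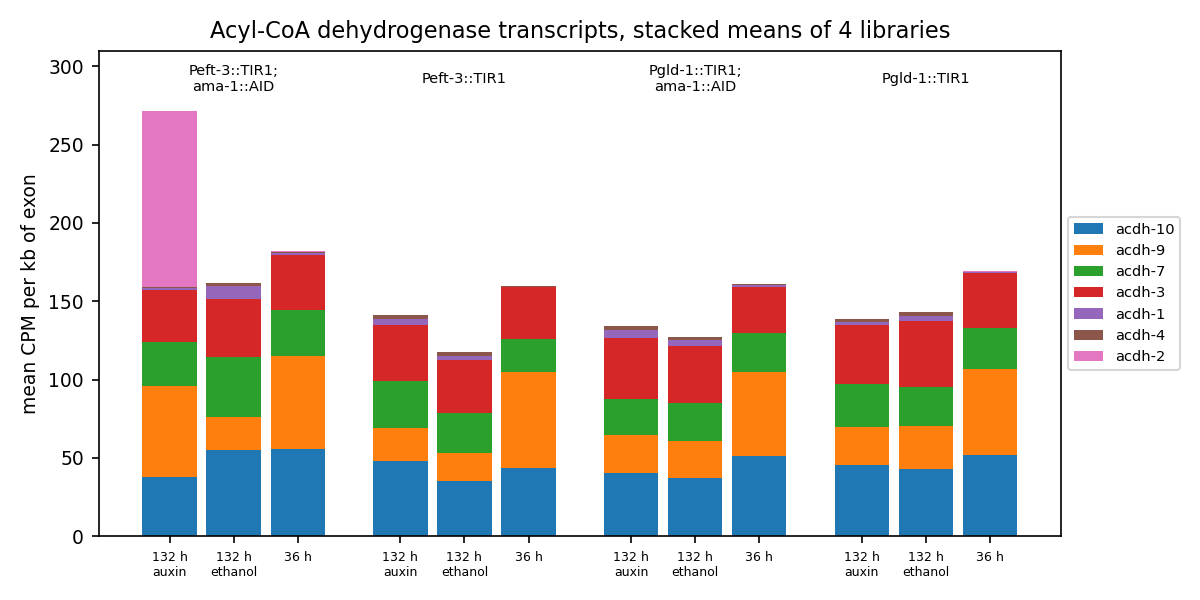
Stacked bars give the mean CPM per kb of exon over 4 libraries for the 7 members that passed the filter, for the 4 strains and 3 conditions (x axis). With auxin in the somatic degron strain, *acdh-2* (pink) adds 112.4 CPM per kb to the bar, and *acdh-9* (orange) is 17.9 to 27.3 CPM per kb at 132 h with ethanol and 53.5 to 61.1 CPM per kb at 36 h over the strains.

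Members related to medium chain enzymes included the adjacent pair *acdh-10* and *acdh-7*. *acdh-10* was above *acdh-7* per kb in 48 of 48 libraries, with a ratio of 1.03 to 2.78 (median 1.72). *acdh-8* had at most 9 counts in any library, with a count in 10 of 48. The remaining low members were *acdh-5*, with at most 14 counts and a count in 10 libraries, and *acdh-6*, with at most 18 counts and a count in 24. These 3 genes were not tested.

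*acdh-9*, related to the human enzyme of valine breakdown, changed with time in each strain. It was lower at 132 h with ethanol than at 36 h in all 4 strains, and in none did the libraries overlap. The somatic degron strain had 28, 20.7, 29.7 and 32.6 CPM with ethanol and 89.4, 71.4, 68.2 and 91.1 CPM at 36 h. In the somatic control strain, it was 24 ± 3.64 CPM with ethanol and 81.9 ± 6.37 CPM at 36 h (SD, n = 4). The ethanol libraries were the low ones in both. In the germline degron strain, it was 31.7 ± 4.62 CPM with ethanol and 71.7 ± 13.9 CPM at 36 h. In the germline control strain, it was 36.6 ± 9.63 CPM with ethanol and 74.0 ± 4.94 CPM at 36 h. Over the 4 strains, the highest ethanol library was at 49.3 CPM and the lowest 36 h library at 53.4 CPM. By edgeR, log2 fold changes were −1.79 (SE 0.20, adjusted p = 4.3e-10), −2.16 (SE 0.20, 6.7e-13), −1.5 (SE 0.19, 1.7e-08) and −1.47 (SE 0.18, 4.5e-09) in that order of strains. Scaled to spike-ins, the 4 changes were −0.96, −1.27, −0.74 and −1.09, with the median of all genes at 0.85, 0.84, 0.78 and 0.46, and the call in the germline degron strain was lost (adjusted p = 0.10).

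With auxin, *acdh-9* parted between the somatic degron strain and the rest. It was 84.8, 84.5, 83.1 and 59.8 CPM with auxin in the somatic degron strain, all above the ethanol libraries and in the range of the 36 h libraries apart from the lowest. In the somatic control strain the auxin libraries were at 25.7, 28.3, 27 and 30.7 CPM, close to the ethanol libraries of that strain, 18.7, 26.7, 24.4 and 26.2 CPM. *acdh-9* averaged 32.2 ± 5.07 CPM with auxin in the germline degron strain and 32.6 ± 4.22 CPM in the germline control strain. Auxin against ethanol gave a log2 fold change of 1.36 (SE 0.22, adjusted p = 2.5e-06) in the somatic degron strain and 0.19 (SE 0.18, adjusted p = 1) in the somatic control strain. The difference between these strains was 1.17 (SE 0.28, adjusted p = 0.0016). When libraries were scaled to spike-ins, *acdh-9* was at 0.13 (adjusted p = 0.77) while the median of all genes was at −1.25, and the difference between strains was 0.09 with that median at −1.14. Per 10000 spike-in counts, *acdh-9* had 15.2 ± 6.62 counts with auxin, 13.9 ± 4.94 with ethanol and 27.1 ± 6.87 at 36 h in the somatic degron strain. Per spike-in count, auxin and ethanol thus differed by less than the spread between replicates. The difference also missed the threshold without replicate 2 (0.92, adjusted p = 0.069).

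*acdh-1*, the dehydrogenase of the propionate shunt, was higher at 132 h with ethanol than at 36 h in both strains with somatic TIR1. The somatic degron strain had 9.53, 7.74, 31 and 6.58 CPM at 132 h with ethanol and 0.614, 3.10, 4.38 and 0.707 CPM at 36 h. In the somatic control strain, it was 4.55, 5.92, 6.01 and 1.81 CPM with ethanol and 0.064, 0.533, 1.15 and 0.955 CPM at 36 h. The libraries did not overlap in either strain. Log2 fold changes were 3.12 (SE 0.88, adjusted p = 0.0047) in the tagged and 3.10 (SE 0.94, adjusted p = 0.0057) in the untagged strain, and the second call was lost without replicate 1 (2.26, adjusted p = 0.066). In the germline degron strain, *acdh-1* was 3.22, 2.46, 11.6 and 8.59 CPM with ethanol and 0.226, 3.18, 4.03 and 1.94 CPM at 36 h (log2 fold change 1.67, adjusted p = 0.12). In the germline control strain, it was 0.951, 1.97, 11.6 and 6.40 CPM with ethanol and 0.685, 0.124, 1.55 and 1.89 CPM at 36 h (2.07, adjusted p = 0.051). With the replicate number as a block, both germline strains passed the threshold, at 1.85 (adjusted p = 0.033) and 1.68 (adjusted p = 0.044). Whether the change with time differed between strains was not tested.

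*acdh-1* was lower with auxin in the somatic degron strain. It was 3.01, 1.55, 1.75 and 3.02 CPM with auxin, below each of the ethanol libraries and within the range of the 36 h libraries. The log2 fold change against ethanol was −3.91 (SE 1.00, adjusted p = 0.0021), and −2.71 (adjusted p = 0.0076) without W1. In the somatic control strain, *acdh-1* was 4.66, 2.42, 13.4 and 5.63 CPM with auxin, and the difference between the strains in the effect of auxin was −4.36 (SE 1.25, adjusted p = 0.0087). Without replicate 3 the difference was −3.70 (adjusted p = 0.059). Replicate 3 was the highest library for *acdh-1* in 9 of the 12 groups, as in the germline degron strain with auxin, at 1.71, 3.84, 25.4 and 4.92 CPM. In the germline control strain with auxin, it was 0.786, 6.75, 3.24 and 1.16 CPM. The 5 genes most like *acdh-1* over the 12 group means were *W01A11.1* (Pearson correlation 0.930), *F31D5.2* (0.923), *srlf-36* (0.915), *far-8* (0.915) and *spig-9* (0.914), of which *far-8* encodes a fatty acid and retinol binding protein.

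**Figure D4:**
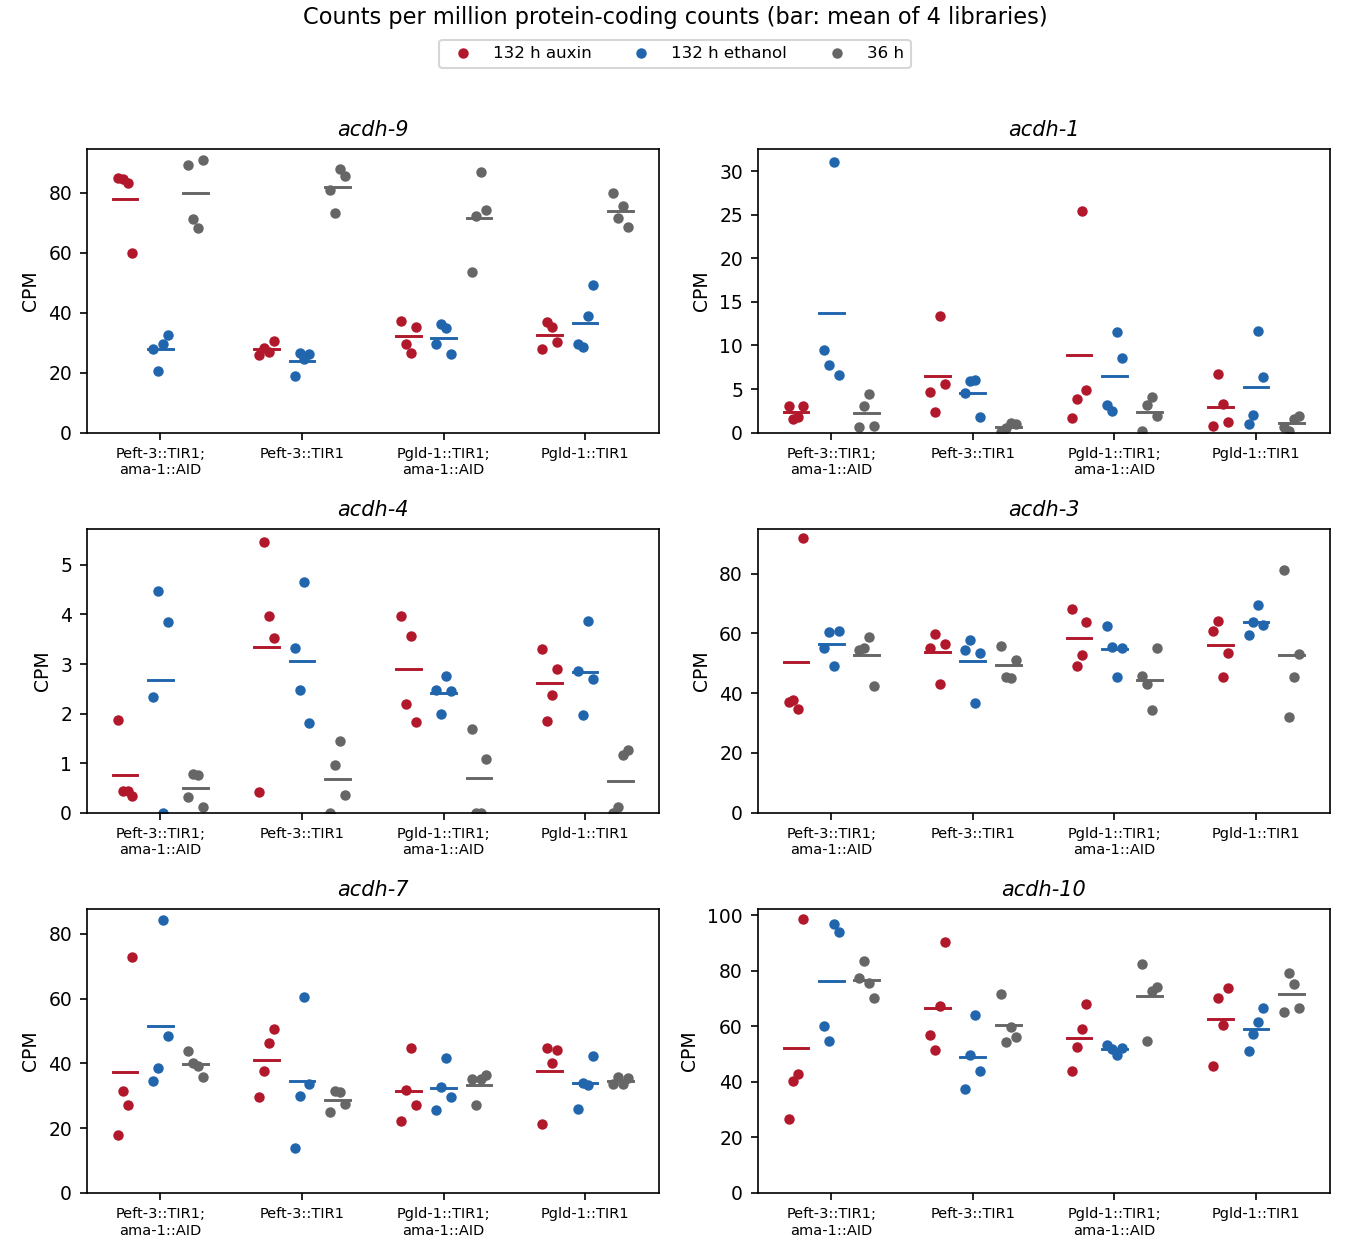
Each point is 1 library and each bar the mean of 4, in CPM on the y axis from 0, for 6 members across the 4 strains (red, 132 h with auxin; blue, 132 h with ethanol; grey, 36 h). *acdh-9* with auxin stays at 59.8 to 84.8 CPM in the somatic degron strain and at 25.7 to 37.4 CPM in the other strains, and *acdh-1* has 1 library of 31 CPM among its ethanol libraries.

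*acdh-4*, the other member near ACADSB, was low. It did not pass the quasi-likelihood test in any comparison in the fit of all 48 libraries with W1. It was 1.87, 0.443, 0.437 and 0.336 CPM with auxin, 2.34, 4.47, 0 and 3.86 CPM with ethanol, and 0.307, 0.776, 0.761 and 0.118 CPM at 36 h in the somatic degron strain. Group means at 132 h with ethanol were 2.42 to 3.06 CPM and those at 36 h 0.490 to 0.693 CPM over the 4 strains. The libraries of these times did not overlap in the 3 strains other than the somatic degron strain. Log2 fold changes with time were 2.02, 1.67, 1.37 and 1.63 in the somatic degron strain, the somatic control strain, the germline degron strain and the germline control strain (adjusted p 0.18 to 0.34). Auxin against ethanol gave −1.67 (SE 1.23, adjusted p = 0.32) in the somatic degron strain. Scaled to spike-ins it was −3.15 (adjusted p = 0.0072), against the median of −1.25.

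*acdh-10* and *acdh-7* had lower fitted levels with auxin in the somatic degron strain, although their libraries overlapped. *acdh-10* was 26.7, 40.4, 42.9 and 98.6 CPM with auxin, 60.0, 54.8, 96.9 and 93.9 CPM with ethanol, and 77.3, 83.4, 75.7 and 70.0 CPM at 36 h. *acdh-7* was 17.9, 31.6, 27.2 and 72.7 CPM with auxin, 34.5, 38.6, 84.2 and 48.6 CPM with ethanol, and 43.8, 40, 39.3 and 35.8 CPM at 36 h. Replicate 4 was the high auxin library for both, and it was also high for *acdh-3*, at 92 CPM against 34.7 to 37.6 CPM in the other auxin libraries. It is the library with the most oocyte and eggshell transcripts, whose part in these levels was not tested. Log2 fold changes were −0.98 (SE 0.27, adjusted p = 0.0035) for *acdh-10* and −1.25 (SE 0.36, adjusted p = 0.0058) for *acdh-7*. Without replicate 3, both missed the threshold (adjusted p = 0.11 and 0.28), and without W1 *acdh-7* did so at −0.65 (adjusted p = 0.078). The differences from the somatic control strain in the effect of auxin were −1.39 (adjusted p = 0.0017) and −1.45 (adjusted p = 0.016). Without replicate 3 that of *acdh-7* was −1.18 (adjusted p = 0.11).

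With time in ethanol, *acdh-10* was lower in 3 of the 4 strains by the test. The log2 fold changes were −0.60 (adjusted p = 0.026) in the somatic control strain, −0.68 (adjusted p = 0.018) in the germline degron strain and −0.68 (adjusted p = 0.0090) in the germline control strain, against −0.13 (adjusted p = 0.73) in the somatic degron strain. These 3 calls were lost with spike-in scaling, where the value in the somatic control strain was 0.18. The first was lost without replicate 1 or 2 and the second without replicate 1 or 3. *acdh-7* and *acdh-3* did not pass the threshold with time in any strain. For *acdh-3*, auxin against ethanol in the somatic degron strain gave −0.36 (SE 0.26, adjusted p = 0.31), and −1.74 (adjusted p = 4.6e-05) with spike-in scaling.

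Over the family, 1 member of 6 tested was higher and 3 were lower with auxin than with ethanol in the somatic degron strain, *acdh-2* left out. Of all genes, 29.3% were called there (13.3% higher and 16.1% lower), and nothing is read from the members' count because this contrast chose the family. With spike-in scaling, 0 of the 6 were higher and 5 were lower, where 416 of all 15549 genes were higher and 8147 lower. Of the same 6 members, 4 differed from the somatic control strain in the effect of auxin, where 20.8% of all genes did (8.31% higher and 12.5% lower), with *acdh-9* higher and the other 3 lower (0 higher and 4 lower with spike-in scaling). Nothing is read from that count either, since it holds the contrast that chose the family. For this difference between strains, the median of all genes with spike-in scaling was −1.14. With time in ethanol, 2 of 6 were called in the somatic degron strain (30.2% of all genes, 15.2% higher and 15.1% lower), 3 of 7 in the somatic control strain (44.4%, with 20.5% higher and 23.9% lower), 2 of 7 in the germline degron strain (34.2%, with 17% higher and 17.1% lower) and 2 of 7 in the germline control strain (38.3%, with 18.8% higher and 19.4% lower). These shares of members are near those of all genes. Auxin at 132 h against 36 h in the somatic degron strain gave 4 lower members of 6, where 47.9% of all genes were called (23.8% higher and 24.2% lower). They were *acdh-10* at −1.11 (adjusted p = 4.6e-05), *acdh-7* at −0.79 (adjusted p = 0.025), *acdh-3* at −0.53 (adjusted p = 0.034) and *acdh-9* at −0.42 (adjusted p = 0.048). The last 3 were lost in at least 3 of the 4 fits that left out a replicate, and *acdh-9* also with the replicate number as a block (adjusted p = 0.054). Mean CPM with auxin and at 36 h was 52.2 and 76.6 for *acdh-10*, and 37.4 and 39.8 for *acdh-7*. For *acdh-3* it was 50.3 and 52.7, and for *acdh-9* 78.0 and 80.0. The libraries of the 2 groups overlapped for each of the 4. Nothing is read from this count either, since its auxin libraries are among those that chose the family. The contrasts within a strain share libraries.

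**Figure D5:**
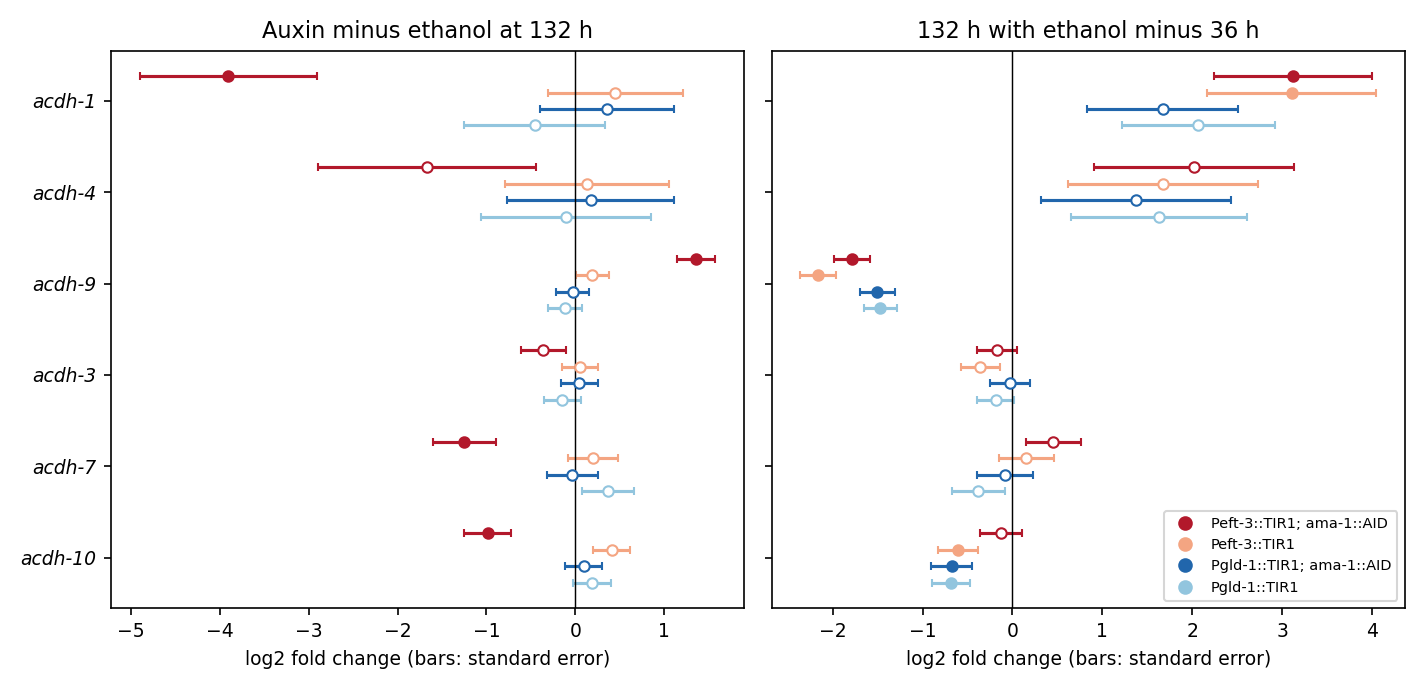
Log2 fold changes with their standard errors for 6 members (y axis) in the 4 strains, for auxin minus ethanol at 132 h (left) and 132 h with ethanol minus 36 h (right). Filled points passed the adjusted p of 0.05: *acdh-9* passed with time in all 4 strains, at −1.47 to −2.16, and only the somatic degron strain has filled points for auxin.

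Genes that feed or follow the dehydrogenases were counted in lists beside the family, from the same fit. The lists were written with earlier results of these data known, so their counts are a description. With auxin in the somatic degron strain, 8 of 12 genes of mitochondrial fatty acid oxidation were lower and 0 were higher (median log2 fold change −1.33, against 0.11 over all genes, of which 16.1% were lower and 13.3% higher). This share of all genes stands behind each list count for auxin. *acs-2*, an acyl-CoA synthetase that activates fatty acids, was at 18.5 ± 16.7 CPM with auxin, 1245 ± 260 CPM with ethanol and 0.662 ± 0.791 CPM at 36 h (SD, n = 4). Its log2 fold change against ethanol was −5.59 (SE 0.50, adjusted p = 2.6e-12). *hacd-1*, a hydroxyacyl-CoA dehydrogenase, was at 8.78 ± 5.65 CPM with auxin, 272.9 ± 56.0 CPM with ethanol and 1.47 ± 1.44 CPM at 36 h. Within this strain, both genes were thus high in the ethanol libraries alone. Of 9 peroxisomal genes, 3 were lower (median −1.22), among them the acyl-CoA oxidases *acox-1.1* (−3.09, adjusted p = 2.1e-05) and *acox-3* (−1.76, adjusted p = 0.00038).

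Of the 6 genes of the B12-dependent propionate route, 5 were lower with auxin in this strain (median −1.06). *pcca-1*, a subunit of propionyl-CoA carboxylase, was at 92.3 ± 31.95 CPM with auxin and 265.6 ± 25.5 CPM with ethanol (−1.83, adjusted p = 2.3e-11). *mce-1*, methylmalonyl-CoA epimerase, was at 15.3 ± 4.38 CPM with auxin and 31.96 ± 2.25 CPM with ethanol (−1.45, adjusted p = 1.2e-05). Of the 4 genes that act after *acdh-1* in the propionate shunt, 1 was higher (median 0.17). This was *alh-8*, a semialdehyde dehydrogenase, with 8339 ± 946 CPM with auxin and 2209 ± 526 CPM with ethanol (1.64, adjusted p = 1.6e-08). At 36 h, *alh-8* was at 11390 ± 561 CPM, with every library above every auxin library. Among the 4 other acyl-CoA dehydrogenases, *ivd-1*, isovaleryl-CoA dehydrogenase of leucine breakdown, was higher, with 212.2 ± 43.1 CPM with auxin, 58.2 ± 10.9 CPM with ethanol and 156.4 ± 15.8 CPM at 36 h (1.87, adjusted p = 1.8e-10). The other 3 did not pass the threshold (median of the 4, −0.16).

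None of the 8 genes of branched-chain amino acid breakdown and none of the 3 electron acceptors was called with auxin in this strain. Of 6 regulators, 2 were lower (16.1% of all genes were), the nuclear receptor *nhr-114* (−2.57, adjusted p = 1.9e-07) and *sbp-1*, the homologue of SREBP (−0.46, adjusted p = 0.049). The list counts for auxin depended on the fit, as alternatives added after the data were seen showed. With spike-in scaling, where 52.4% of all genes were lower, 10 genes of mitochondrial fatty acid oxidation, 7 peroxisomal genes, 5 genes of the B12-dependent route, 5 regulators and all 8 of branched-chain amino acid breakdown were lower, and *alh-8* and *ivd-1* were no longer called higher. With only the libraries compared, 311 of 15541 genes in all were lower, against 2498 of 15549 with all libraries. In that smaller fit, 1 gene of mitochondrial fatty acid oxidation, 0 peroxisomal genes, 2 of the B12-dependent route and 0 regulators were lower. No list had a call with auxin in the other 3 strains. With time in ethanol, 8 or 9 of the 12 genes of mitochondrial fatty acid oxidation were higher in each strain and 1 was lower (medians 0.74 to 1.08), where 15.2% to 20.5% of all genes were higher. Of 8 genes of branched-chain amino acid breakdown, 6 were lower in each strain (medians −0.60 to −1.05), where 15.1% to 23.9% of all genes were lower, and 1 was higher in 3 strains. With spike-in scaling, 9 or 10 of the fatty acid oxidation genes were higher, and 1 or 2 of the branched-chain genes were lower in each strain. Without that scaling, the medians of all genes with time in ethanol were −0.11 to −0.0024, and with it they were 0.46 to 0.85. The shares of all genes given above for time belong to the fit without it.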

How the data were processed

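The authors selected poly-A RNA, added ERCC spike-ins by total RNA, amplified libraries with 14 or 15 PCR cycles depending on batch, mapped read pairs to the WS273 genome with Bowtie 1.2.2 and counted them with HTSeq 0.11.2. The deposited values are raw counts, 1 file per library. Which library had which cycle number is not given in the sources used here. Rows without a gene were left out (no feature, 1.08% to 5.07%). Of 46911 gene identifiers, 46857 matched the WBcel235 annotation.

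The fit kept protein-coding genes that exceeded 10 counts in 4 or more libraries and took all 48 libraries together in edgeR 4.0.16 (R 4.3.3), with upper-quartile normalization and W1 (RUVg, k = 1, 62 spike-ins). The quasi-likelihood test stood in for the study's likelihood ratio test, which was an alternative, as were DESeq2 1.42.0, other scalings, filters and sets of libraries. The code was tested on simulated data. Named genes were the 10 members, all genes within 10 kb of *acdh-2*, the 5 most like *acdh-2* and *acdh-1*, and up to 2 per direction and list. Members and lists were chosen with earlier results of these data known.

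By the study's methods, each replicate was raised from its own plates, and the strains were bleached in parallel. The labels give only replicate numbers, so it is not known whether equal numbers in different strains mark a shared day. Deviations from group means correlated at 0.048 for equal numbers (264 pairs) and −0.016 for unequal ones (792 pairs). The study's fit has no replicate block, and the fit with one is an alternative.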

Additional observations from a re-analysis of the deposited data

Results flagged for a closer look

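Of 68 sets of 4 libraries with a mean count of at least 10 for a member, 5 had 1 library apart from the rest by Dixon's ratio at its 95% critical value, where chance alone gives about 1 in 20. *acdh-1* reached a ratio of 0.879 in the somatic degron strain with ethanol, where 1 library had 31 CPM and the others 6.58 to 9.53 CPM. It reached 0.864 in the germline degron strain with auxin, where 1 library had 25.4 CPM and the others 1.71 to 4.92 CPM. Both are replicate 3. *acdh-3* reached 0.948 in the somatic degron strain with auxin, with 92 CPM in replicate 4 and 34.7 to 37.6 CPM in the others. *acdh-9* reached 0.933 in the same group, with 59.8 CPM in replicate 4, the lowest, and 83.1 to 84.8 CPM in the others. Replicate 4 of this group also had the highest spike-in share, 8.33%. *acdh-7* reached 0.850 in the germline degron strain at 36 h, with 27.2 CPM in the lowest library and 35 to 36.4 CPM in the others.

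By the interaction term, the effect of auxin differed between the somatic degron strain and the somatic control strain for 4 members. The log2 differences were −4.36 for *acdh-1*, −1.45 for *acdh-7*, 1.17 for *acdh-9* and −1.39 for *acdh-10*.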

How the results depend on the processing

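Across 43 log2 fold changes of single members and 16 alternatives, counts of members left out, 559 of 660 values kept their direction and side of the threshold. Of the rest, 15 came to pass it, 64 no longer did and 22 changed sign. Of these sign changes, 21 had neither value past the threshold. Causes were not tested. The number of members called with auxin in the somatic degron strain, 4 (1 higher and 3 lower), was 5 with spike-in scaling (0 higher and 5 lower), 3 without W1 (1 higher and 2 lower), 1 when only the libraries compared were fitted and 2 when these were fitted without W1, and 2 to 4 with a replicate left out (2 without replicate 3). The 4 members that differed from the somatic control strain became 4 lower and 0 higher with spike-in scaling, 3 without W1, 1 with only the libraries compared, and 2 to 4 with a replicate left out. With time in ethanol, the 2 of the somatic degron strain became 4 with spike-in scaling and 1 with only the libraries compared. The 2 of the germline degron strain became 0 with spike-in scaling, 1 at a threshold of 0.01 and 1 to 2 with a replicate left out. The 3 of the somatic control strain became 1 to 3, and the 2 of the germline control strain 2 to 3, with a replicate left out. For auxin against 36 h, the 4 became 1 with only the libraries compared, with or without W1, with DESeq2 and at a threshold of 0.01, and 1 to 3 with a replicate left out. The 1 member at 36 h between the somatic strains became 0 with only the libraries compared, with or without W1, at a threshold of 0.01 and with any replicate left out.

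Log2 fold changes with time in ethanol took the other sign with spike-in scaling for *acdh-3* (0.63, 0.55, 0.74 and 0.36 in the somatic degron, somatic control, germline degron and germline control strains), for *acdh-10* (0.59 in the somatic degron and 0.18 in the somatic control strain) and for *acdh-7* (0.35 in the germline degron strain). *acdh-4* with auxin against 36 h became −0.18. In the germline degron strain, *acdh-3* became 0.02 with TMM and with DESeq2, and 0.14 with only the libraries compared. In the somatic control strain, *acdh-7* became −0.17 without W1, over all libraries or only those compared. With a replicate left out, *acdh-7* ran from −0.01 to 0.71 in the somatic degron strain, −0.28 to 0.38 in the somatic control strain and −0.25 to 0.02 in the germline degron strain. *acdh-10* ran from −0.29 to 0.02 in the somatic degron strain and *acdh-3* from −0.38 to 0.15 in the germline control strain. *acdh-4* with auxin against 36 h ran from −0.87 to 1.04.

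With the replicate number as a block, *acdh-1* with time passed the threshold in the germline degron strain (1.85) and the germline control strain (1.68), *acdh-9* with auxin against 36 h no longer did (adjusted p = 0.054), and *acdh-7* in the somatic control strain was at −0.04. The block changed no other call of a member.

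Over all genes, the 2063 higher and 2498 lower calls with auxin in the somatic degron strain became 340 and 311 with only the libraries compared, 416 and 8147 with spike-in scaling, and 3226 higher and 3328 lower without W1. With a replicate left out there were 1332 to 1757 higher and 1867 to 2183 lower calls. At 36 h, the 35 genes called between the somatic strains became 115 with the likelihood ratio test and 1 fewer than that with DESeq2, and the 1 gene between the germline strains became 4 with the likelihood ratio test and 19 with DESeq2. Members with few counts (*acdh-4*, *acdh-5*, *acdh-6*, *acdh-8*, and *acdh-2* outside the somatic degron strain) are limited by depth.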

Other observations

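*sfxn-1.5*, named like *sfxn-1.1* as a sideroflexin, had the pattern nearest to that of *acdh-9* over the 12 group means (Pearson correlation 0.994), a comparison made after values of *acdh-9* had been seen. It had 306 to 466 counts with auxin and 76 to 216 with ethanol in the somatic degron strain. Next in likeness were *sax-1* and *gld-2* (both 0.988), *vbh-1* (0.987) and *B0546.3* (0.987). These points share libraries, and the values are a description.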
